A study of Mus musculus with 10 samples.

Results

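The 10 genes described here encode the sensors, the adaptor and the effectors of the inflammasome, together with 2 proteins tied to NLRP3 activation. They are Nlrp3, Nlrc4, Aim2 and Nlrp1b (sensors), Nek7 and Txnip (NLRP3 partners), Pycard (adaptor), and Casp1, Casp4 and Gsdmd (effectors). They were chosen by symbol from a deposited count table, and 10 of 10 were found among its 21869 genes, and all 10 passed the filter on low counts. Messenger RNA was sequenced from retinal cells of mice whose sample titles carry the mark WT, sorted as live CD11b-positive cells with intermediate CD45, a gate the labels call microglia. CD36-positive cells of this gate gave 5 libraries (numbers 1, 2, 3, 4 and 7), and CD36-negative cells gave 5 (numbers 1, 2, 4, 7 and 8). The treatment protocol names sodium iodate at 20 mg/kg, a poison of the retinal pigment epithelium, and saline controls, with eyes taken 7 days later. The labels do not give the treatment, age or sex behind each library. Nor is it stated whether the libraries of a group came from separate animals, so p-values measure the spread between these libraries, which may be technical.

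Inflammasomes are protein platforms that form in the cytosol of myeloid cells, microglia among them. A sensor that meets its trigger recruits the adaptor ASC, which gathers pro-caspase-1. Active caspase-1 then cuts the precursors of IL-1β and IL-18 and the pore-forming protein gasdermin D, while caspase-11 cuts gasdermin D after binding lipopolysaccharide. These steps act on protein, so messenger RNA levels show the supply of components and not whether an inflammasome had formed.

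Library totals ran from 5001680 to 13250982 counts. On principal components of all tested genes CD36-positive libraries 1 and 3, the shallowest, stood apart from the rest. Microglia markers summed to 6770 to 15200 CPM (counts scaled by library size) in CD36-positive and 6700 to 15200 CPM in CD36-negative libraries, and 0 of 10 passed edgeR's test (2 had an unadjusted p under 0.05, and limma-voom and DESeq2 called 0). Markers of several other cell types were lower in CD36-positive libraries: dendritic cell markers summed to 13.7 to 52.5 CPM against 675 to 999 CPM in CD36-negative libraries, with 10 of 10 lower, and neutrophil markers to 83.7 to 193 against 342 to 888 CPM, with 7 of 9 tested lower. Monocyte markers summed to 467 to 971 against 1240 to 2200 CPM (5 of 8 lower), and T and NK cell markers to 0.901 to 7.59 against 43 to 314 CPM (4 of 4 tested lower). Photoreceptor markers summed to 115 to 984 against 397 to 2430 CPM (2 of 10 lower), and endothelial markers to 5.58 to 11.6 against 25.2 to 32.3 CPM (2 of 3 tested lower). B cell markers overlapped, at 19.9 to 34.5 against 10.9 to 35.3 CPM. Border macrophage markers went the other way, at 847 to 1130 against 329 to 908 CPM, with 2 of 7 tested higher and 1 lower. So did Muller glia and astrocyte markers, at 116 to 187 against 92.5 to 168 CPM, with 1 of 5 tested higher and 0 lower. Retnlg, Ly6g, Ngp and Prf1 were at 0 in all 5 CD36-positive libraries. In sorted bulk samples, fewer cells of a type and less RNA per cell cannot be told apart.

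Of the 10 genes, Casp1 was higher and Txnip was lower in CD36-positive cells, and the other 8 did not pass the test. Casp1 was at 112.8 ± 14.0 against 72.2 ± 8.61 CPM and Txnip at 306.4 ± 28.4 against 460.4 ± 60.1 CPM (mean ± SD, n = 5 each). The test was edgeR's quasi-likelihood test over 11597 genes, with a Benjamini-Hochberg adjusted p under 0.05 as the threshold. Over all genes tested 2.61% were called higher, 4.73% lower and 7.35% in either direction, beside which 1 of 10 and 1 of 10 stand. The median log2 fold change was 0.118 over the 10 genes and 0.0169 over all genes tested. Counted by CPM alone, the CD36-positive group was entirely above the CD36-negative group for 1 of the 10 genes (2.59% of all genes) and entirely below it for 1 (5.83% of all genes). These were again Casp1 and Txnip, and for the other 8 the groups overlapped.

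**Figure D1:**
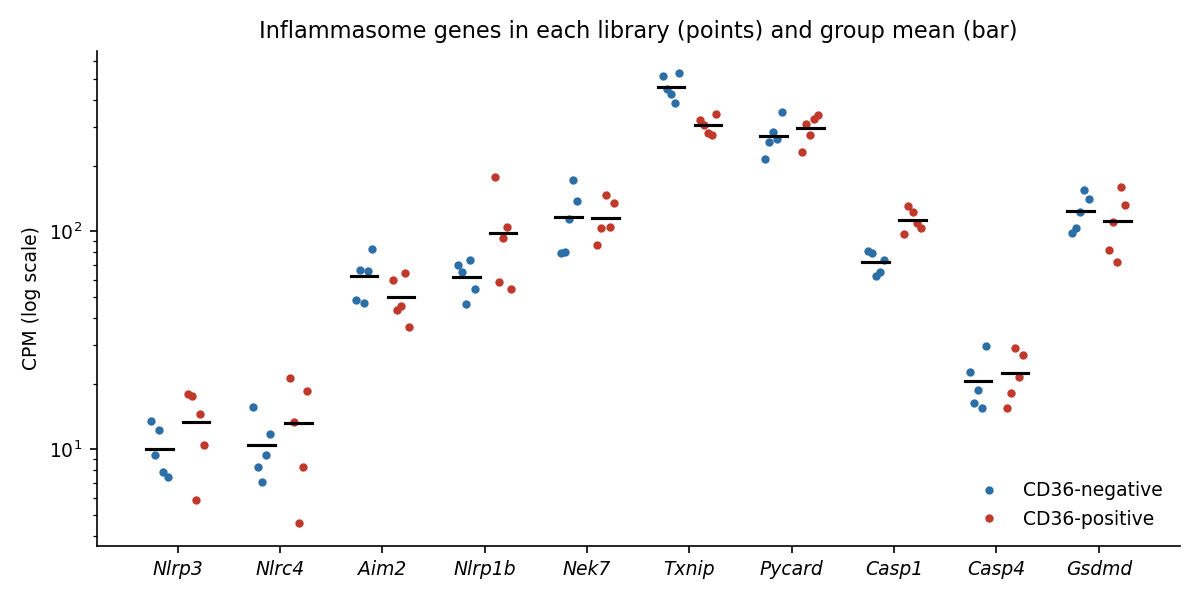
CPM (log axis) of each gene in the 5 CD36-negative (blue) and 5 CD36-positive (red) libraries; each point is 1 library and each bar a group mean. The red points of Casp1 (96.9 to 131 CPM) lie above the blue ones (62 to 81.2 CPM), those of Txnip lie below, and the other 8 genes overlap.

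Casp1 encodes caspase-1, the protease that every canonical inflammasome recruits. On GRCm38 it lies on chromosome 9 from 5298517 to 5307265 (plus strand), annotated as protein coding. CD36-negative libraries 1, 2, 4, 7 and 8 held 81.2, 79.6, 62, 64.8 and 73.5 CPM. CD36-positive libraries 1, 2, 3, 4 and 7 held 96.9, 131, 123, 109 and 103 CPM. The lowest CD36-positive library, number 1, was still above the highest CD36-negative one, also number 1. The log2 fold change was 0.64 (SE 0.172, 95% interval 0.279 to 1.01), a 1.56-fold higher level (edgeR adjusted p = 0.0298). The estimate moved little when any 1 library was left out (0.569 to 0.692), but the call stood near the threshold. It was lost without CD36-negative library 4, 7 or 8 (edgeR adjusted p = 0.108, 0.0848 and 0.0659) and without CD36-positive library 2 or 3 (edgeR adjusted p = 0.0734 and 0.0588). Without both libraries that stood apart it was 0.65 (edgeR adjusted p = 0.0286). With no filter on low counts the call was lost (edgeR adjusted p = 0.0684), and with GC content and length corrected for it was 0.55 against a median of 0.157 for all genes (edgeR adjusted p = 0.0283). Border macrophage markers (summed medians 976 against 532 CPM) and Muller glia and astrocyte markers (179 against 103 CPM) were higher with Casp1. Their part in the result was not tested.

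Casp4, which encodes caspase-11, the receptor for cytosolic lipopolysaccharide, starts 1562 bases beyond the end of Casp1 on the same strand (chromosome 9, 5308828 to 5336783). Its libraries held 22.5, 16.3, 18.7, 15.5 and 29.6 CPM in CD36-negative cells 1, 2, 4, 7 and 8. CD36-positive cells 1, 2, 3, 4 and 7 held 15.4, 18.1, 29.2, 21.5 and 27.1 CPM. Both groups covered the same range, and the log2 difference was 0.12 (95% interval -0.467 to 0.706, edgeR adjusted p = 0.85), which changed sign when GC content and transcript length were corrected for (-0.06) and with detected genes as a covariate (-0.06). No exon of Casp1 overlapped one of Casp4. Casp1 counts were 3.81 to 7.24 times those of Casp4 in CD36-positive libraries and 2.48 to 4.88 times in CD36-negative ones. The mean log2 ratio was 2.37 ± 0.385 against 1.85 ± 0.368 (SD, n = 5 each), a difference of 0.523 (exact permutation test, two-sided p = 0.0635 over 252 arrangements). This difference, tested after the values were seen, did not pass, so the neighbouring genes were not shown to change differently. With 1 library left out it passed without CD36-negative library 2 or CD36-positive library 7 (exact permutation p = 0.0317 in each). It did not pass without any other library (exact permutation p from 0.0635 to 0.127).

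Gsdmd encodes gasdermin D, whose cut amino-terminal part forms pores in the plasma membrane (chromosome 15, 75862327 to 75867408). It ranged from 71.9 to 160 CPM in CD36-positive libraries and from 97.6 to 155 CPM in CD36-negative ones. CD36-positive library 4 was the highest of all 10 and libraries 1 and 3 the lowest, so the positive group enclosed the negative one. The log2 fold change was -0.15 (95% interval -0.629 to 0.324, edgeR adjusted p = 0.757), and it was 0.11 without CD36-positive libraries 1 and 3 (edgeR adjusted p = 0.837). With GC content and length corrected for, which raised the median of all genes to 0.157, it was 0.14. Of the 3 effector genes 1 was called higher (Casp1, against 2.61% of all genes called higher) and 2 did not pass.

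The promoter of Casp1 is shown because this is the member that rose. It is the RefSeq window from 250 bases before to 50 after the start site (GRCm38.p6, chr9:5298267-5298566, plus strand), written 5′ to 3′. Capitals mark matches to the motifs searched on both strands: the E-box CACGTG, which 7.15% of 32851 promoter windows of this length hold, and the PU.1-type core GAGGAA, here on the other strand, which 28.3% hold.
Casp1: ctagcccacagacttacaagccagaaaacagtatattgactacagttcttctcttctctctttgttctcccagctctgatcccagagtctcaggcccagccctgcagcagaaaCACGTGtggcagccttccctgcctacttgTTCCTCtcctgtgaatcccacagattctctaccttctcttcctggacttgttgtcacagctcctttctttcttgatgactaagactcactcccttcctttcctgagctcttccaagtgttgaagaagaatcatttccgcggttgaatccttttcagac
The E-box began 137 bases before the start site and the PU.1-type core 108 bases before it. The STAT-type motif TTCNNNGAA (in 8.3% of windows) and the interferon-type motif of TTTC, any 2 bases and TTTC (in 3.44%) had no match in these letters, nor did the TATA motif TATAAA (in 13.6%). The motifs were chosen after the values of the genes were seen. Promoter windows were found for 9 of the 10 genes, all but Gsdmd.

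Txnip encodes thioredoxin-interacting protein, an arrestin-fold protein that binds thioredoxin and can bind NLRP3. Its gene lies on chromosome 3 from 96557957 to 96561883 (plus strand). CD36-negative libraries 1, 2, 4, 7 and 8 held 513, 447, 426, 387 and 530 CPM. CD36-positive libraries 1, 2, 3, 4 and 7 held 324, 307, 281, 276 and 343 CPM. The highest CD36-positive library, number 7, was below the lowest CD36-negative one, also number 7. The log2 fold change was -0.59 (SE 0.157, 95% interval -0.918 to -0.257), 0.665 of the CD36-negative level (edgeR adjusted p = 0.0289). With 1 library left out it ran from -0.647 to -0.535. The call was lost without CD36-negative library 1 or 8 (edgeR adjusted p = 0.0792 and 0.0818) and without CD36-positive library 2, 3 or 4 (edgeR adjusted p = 0.0525, 0.0734 and 0.0634). Without CD36-positive libraries 1 and 3 it was -0.59 (edgeR adjusted p = 0.0499). With no filter on low counts the call was lost (edgeR adjusted p = 0.0568). With the GC and length correction it was -0.46 against a median of 0.157 for all genes (edgeR adjusted p = 0.0596). An antisense gene, Gm15441, shares 606 exon bases with Txnip, and since it is not stated whether counting used strand, reads of this overlap cannot be assigned to one of them. Summed markers of dendritic cells, neutrophils, monocytes, T and NK cells and endothelial cells fell with Txnip, as did 2 of 10 photoreceptor markers. Their part in the result was not tested.

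**Figure D2:**
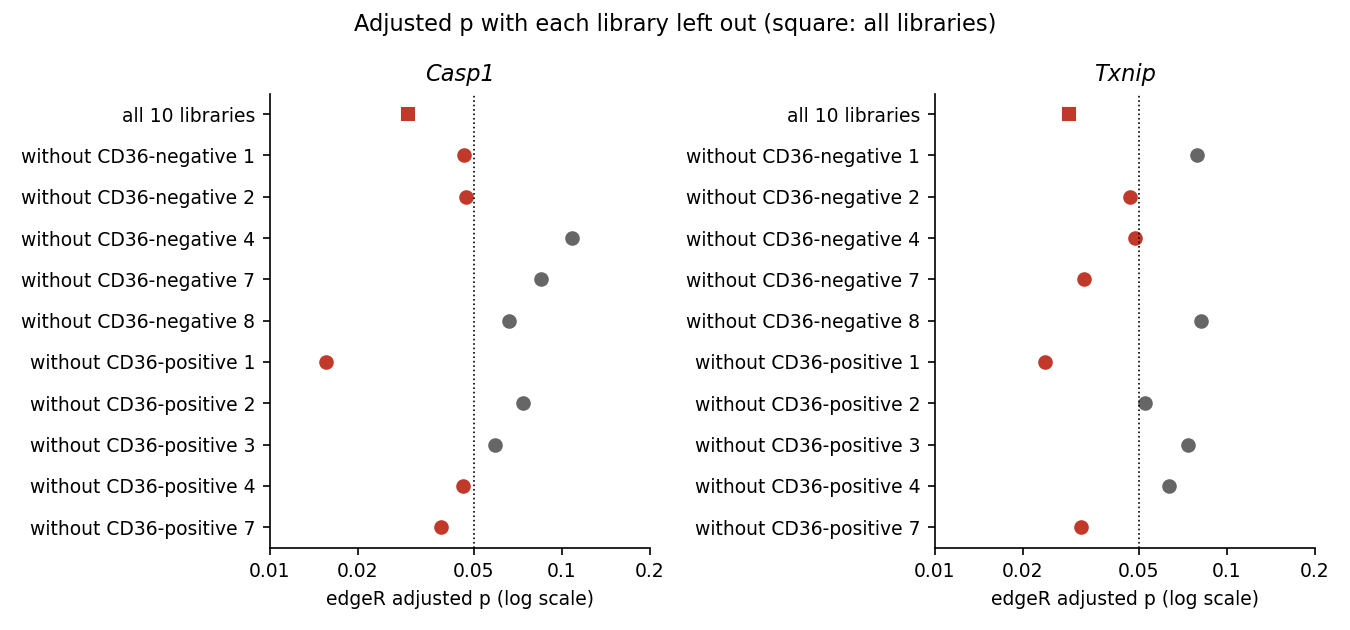
Benjamini-Hochberg adjusted p of edgeR's test (log axis) for Casp1 and Txnip with all 10 libraries (square) and with each library left out (circles); the dotted line is the threshold of 0.05 and red marks fits past it. For each gene 5 of 10 leave-one-out fits were past the threshold, with adjusted p from 0.0156 to 0.108 for Casp1 and from 0.0239 to 0.0818 for Txnip.

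Genes around Txnip were followed through a list of thioredoxin system and arrestin-fold genes. Of 12 tested, 2 rose and 1 fell (25%, against 7.35% of all genes). The list was written with earlier results of these data known, so this share is no test of the list. From here on a value given with an adjusted p after the levels is a log2 fold change. Arrdc4, an arrestin-fold relative of Txnip, fell with it. Its level was 49.7 to 81.5 CPM in CD36-negative and 11 to 27.9 CPM in CD36-positive libraries (log2 fold change -1.66, SE 0.256, edgeR adjusted p = 0.000454), and the difference from the change of Txnip was not tested. Txn1, the cytosolic thioredoxin that TXNIP binds, rose, with 273 to 436 CPM in CD36-positive and 182 to 262 CPM in CD36-negative libraries (0.76, SE 0.175, edgeR adjusted p = 0.0122). The groups did not overlap for either gene. Prdx1, a peroxidase that thioredoxin recharges, was at 1120 ± 299.6 against 584.6 ± 126 CPM (0.94, edgeR adjusted p = 0.00929), with CD36-positive library 1 (756 CPM) below CD36-negative library 2 (786 CPM). Mlx and Mlxip, which encode the glucose-responsive factor MondoA (Mlxip) and its partner, had log2 fold changes of -0.03 and 0.16 and did not pass. By the same measure, neither did the thioredoxin reductase genes Txnrd1 (0.05) and Txnrd2 (-0.28), nor the mitochondrial thioredoxin gene Txn2 (-0.55, edgeR adjusted p = 0.106). Ddit4, a stress-induced inhibitor of mTORC1 signalling, did not pass either (-1.95, edgeR adjusted p = 0.0555), but limma-voom and DESeq2 both called it.

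Txnip and Arrdc4 are both known targets of MondoA, which binds paired E-box-like elements called carbohydrate response elements. Since both fell, their RefSeq promoter windows are shown (GRCm38.p6, 250 bases before to 50 after the start site, 5′ to 3′). Txnip is at chr3:96557707-96558006 on the plus strand and Arrdc4 at chr7:68749189-68749488 on the minus strand. Capitals mark the paired element (CACGAG, then any 5 bases, then CACGAG again), the E-box CACGTG, the CCAAT box and the GC box GGGCGG, each on either strand.
Txnip: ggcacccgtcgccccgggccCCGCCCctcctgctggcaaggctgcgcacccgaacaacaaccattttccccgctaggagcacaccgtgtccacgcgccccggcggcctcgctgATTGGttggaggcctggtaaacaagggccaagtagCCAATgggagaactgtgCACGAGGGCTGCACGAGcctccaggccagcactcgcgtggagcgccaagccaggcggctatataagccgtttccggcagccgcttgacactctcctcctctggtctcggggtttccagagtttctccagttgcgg
Arrdc4: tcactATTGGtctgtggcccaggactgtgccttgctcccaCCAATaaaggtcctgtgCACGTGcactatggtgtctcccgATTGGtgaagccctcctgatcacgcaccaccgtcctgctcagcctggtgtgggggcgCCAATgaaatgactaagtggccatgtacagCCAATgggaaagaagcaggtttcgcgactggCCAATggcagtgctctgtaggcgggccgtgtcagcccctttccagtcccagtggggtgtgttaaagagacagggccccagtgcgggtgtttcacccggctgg
The paired element began 85 bases before the start of Txnip. Only this exact spelling was searched, chosen after the values were seen, and of 32851 promoter windows the Txnip one alone held it (0.00304%). Paired elements with other arms were not searched, so this share does not show how rare such elements are. The single arm CACGAG was in 6.47% of windows. Arrdc4 did not hold this spelling of the pair in its window, and pairs with other arms were not looked for there. It had 1 E-box, 193 bases before the start, and 6 CCAAT boxes, a motif found in 37.4% of windows. Txnip had 2 CCAAT boxes and 1 GC box (in 35.7% of windows). These matches describe the letters only.

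Among the sensors, Nlrp3 was the one named in the title of the series. It encodes the sensor that answers to potassium loss, crystals and membrane damage (chromosome 11, 59541568 to 59566956). CD36-negative libraries 1, 2, 4, 7 and 8 held 13.5, 9.37, 12.2, 7.83 and 7.44 CPM. CD36-positive libraries 1, 2, 3, 4 and 7 held 18, 17.5, 5.87, 14.5 and 10.5 CPM. CD36-positive libraries 1, 2 and 4 were above every CD36-negative library while library 3 was the lowest of all 10. The log2 fold change was 0.40 (95% interval -0.394 to 1.19, edgeR adjusted p = 0.597). Without library 3 it was 0.59 (edgeR adjusted p = 0.397), and without library 1 it was 0.27 (edgeR adjusted p = 0.771). It had 41 to 157 counts per library.

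Nlrp1b encodes a sensor of bacterial proteases (chromosome 11, 71153102 to 71230733). It was at 69.9, 64.7, 46.5, 73.6 and 54.4 CPM in CD36-negative libraries 1, 2, 4, 7 and 8. CD36-positive libraries 1, 2, 3, 4 and 7 held 177, 58.7, 93.3, 105 and 54.2 CPM. Libraries 1, 3 and 4 of the CD36-positive group were above every CD36-negative library and the other 2 were within their range. Its log2 fold change of 0.66 (95% interval 0.0619 to 1.25) was as large as that of Casp1 but its spread was wider, and it did not pass (edgeR unadjusted value 0.0324, edgeR adjusted p = 0.184). Without CD36-positive library 1 it was 0.33 (edgeR adjusted p = 0.457). All 10 of its values were not whole numbers, against 1 of 10 for Aim2 and 0 for the other 8 genes. Nlrp1b has close copies, Nlrp1a among them, that can share reads, so its count is uncertain. Nlrp1a itself was at 23.2 ± 9.08 against 20.3 ± 3.75 CPM (0.19, edgeR adjusted p = 0.76).

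Aim2 encodes a sensor of cytosolic DNA (chromosome 1, 173350879 to 173466040). It ranged from 36.2 to 64.4 CPM in CD36-positive libraries, with a median of 45.6, and from 47 to 83.2 CPM in CD36-negative ones, with a median of 65.7. CD36-positive libraries 2, 3 and 7 were below every CD36-negative library, and libraries 1 and 4 were within their range. Its log2 fold change was -0.32 (95% interval -0.787 to 0.151, edgeR adjusted p = 0.448), and -0.19 without CD36-negative library 8. Nlrc4, the partner of the NAIP receptors for flagellin and secretion needles, had 32 to 232 counts per library (chromosome 17, 74425438 to 74459142). It was at 13.2 ± 6.87 against 10.4 ± 3.41 CPM, with CD36-positive library 1 the highest (21.2 CPM) and library 3 the lowest (4.58 CPM) of all 10. Its log2 fold change was 0.34 (95% interval -0.547 to 1.22, edgeR adjusted p = 0.706), and 0.11 without library 1.

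Pycard encodes ASC, the adaptor that links sensors to caspase-1 (chromosome 7, 127989708 to 127993867). It ran from 230 to 342 CPM in CD36-positive and from 214 to 351 CPM in CD36-negative libraries, the latter range enclosing the former. Between groups the log2 fold change was 0.12 (95% interval -0.254 to 0.486, edgeR adjusted p = 0.764), and it ran from 0.04 without CD36-negative library 1 to 0.22 without CD36-negative library 8. An antisense gene, Gm45205, shares 485 of its exon bases. Nek7, a kinase whose protein bridges NLRP3 subunits (chromosome 1, 138482875 to 138620141), was at 114.6 ± 24.5 against 116.5 ± 39.0 CPM. CD36-negative libraries 1 and 2 (79.3 and 80.6 CPM) were the lowest of all 10 and library 7 (171 CPM) the highest. The log2 fold change was -0.02 (95% interval -0.51 to 0.464, edgeR adjusted p = 0.966), and its sign turned with several alternative settings, up to 0.15 without CD36-negative library 7. Gm28501 overlaps Nek7 by 118 exon bases on the opposite strand.

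**Figure D3:**
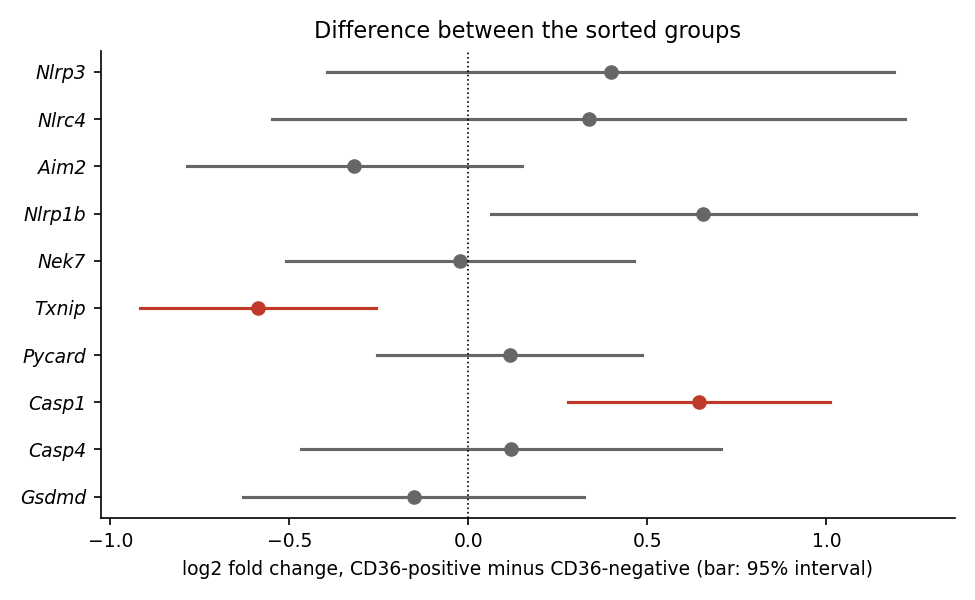
Log2 fold change of each gene, CD36-positive minus CD36-negative (points), with 95% intervals (bars); red marks an edgeR adjusted p under 0.05. Casp1 (0.64) and Txnip (-0.59) are the red points; the interval of Nlrp1b (0.0619 to 1.25) also lies above 0 but its adjusted p was 0.184.

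Levels were compared between genes as CPM per kilobase of annotated exon, since longer transcripts collect more reads. By this length Txnip was the highest of the 10 in both groups (98.1 ± 9.09 in CD36-positive and 147 CPM per kb in CD36-negative libraries, mean of 5). Pycard followed (78.2 ± 11.8 and 72.2 CPM per kb), but its place rests on its annotated length. Its exons and its longest transcript both hold 3800 bases, in a gene that runs from 127989708 to 127993867. By a shorter transcript its level per kb would be higher, so its order against Txnip and Casp1 is uncertain. Casp1 was the third highest in CD36-positive cells at 75.3 ± 9.36 CPM per kb, and stood behind Gsdmd in CD36-negative cells at 48.2 CPM per kb. Pycard and Casp1 did not differ beyond their spread in CD36-positive cells, where Pycard was above Casp1 in 2 of 5 libraries, nor did Gsdmd and Casp1 in CD36-negative cells, where Gsdmd was above in 3 of 5. By longest transcript the means in CD36-negative cells were further apart, at 69.1 for Gsdmd and 48.2 CPM per kb for Casp1. Nek7, Nlrp1b and Aim2 lay between 7.38 and 28.1 CPM per kb, with overlapping ranges in CD36-positive cells, while in CD36-negative cells Nlrp1b (at most 11.7) was below Aim2 (at least 13.4). The sensors Nlrp3 and Nlrc4 were the lowest, at 3.27 and 2.74 CPM per kb in CD36-positive and 2.48 and 2.17 CPM per kb in CD36-negative cells, with overlapping ranges in both. In CD36-negative cells the range of Casp4 (mean 5.53 CPM per kb) did not overlap that of Nlrp3. By the longest transcript in place of all exons, Nlrp1b (22.6) stood above Nek7 (21.8) in CD36-positive and Nek7 (22.2) above Aim2 (21.9 CPM per kb) in CD36-negative cells.

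**Figure D4:**
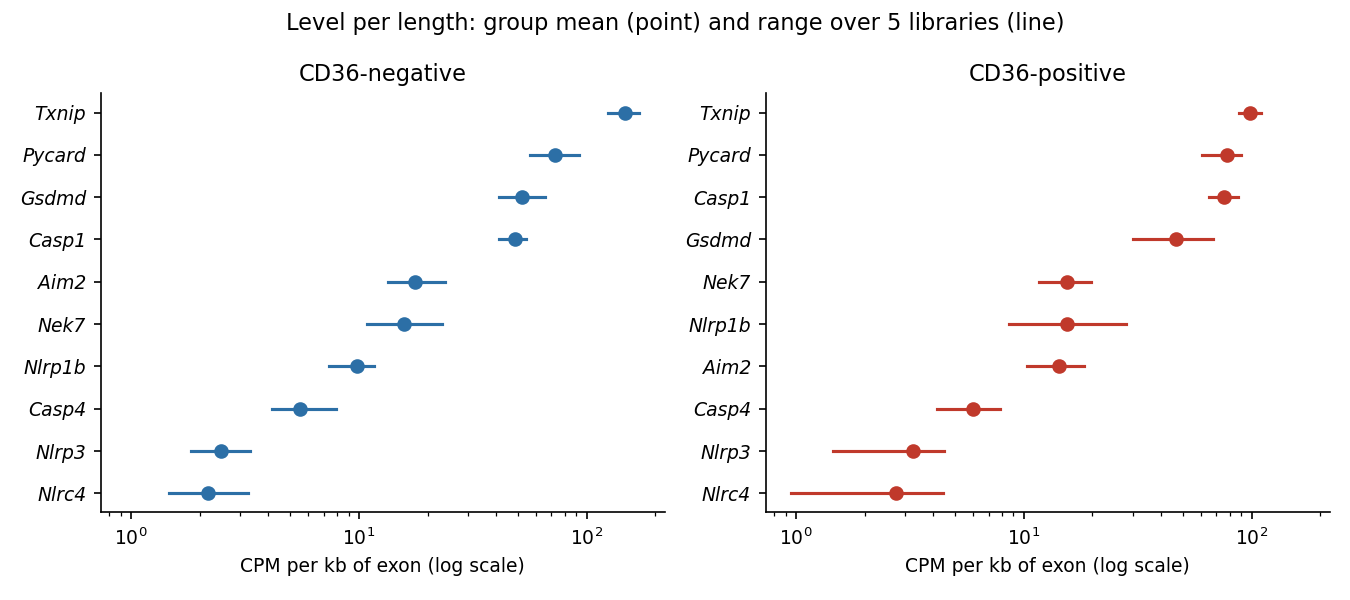
Level per kilobase of exon (log axis) of the 10 genes in CD36-negative (blue) and CD36-positive (red) libraries, ordered by group mean (points), with lines from the lowest to the highest of 5 libraries. By this length Txnip leads and Nlrp3 and Nlrc4 are last in both groups, and Casp1 stands above Gsdmd in CD36-positive and below it in CD36-negative libraries. The place of Pycard rests on an annotated exon length of 3800 bases.

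The 10 genes did not vary as a unit among libraries of the same group. After subtracting group means, Pearson's r over the 10 libraries ran from -0.713 (Nlrp3 and Nek7) to 0.703 (Txnip and Nlrc4) in the 45 pairs, with a median of -0.0603. Among 9277 genes whose log2 CPM averaged 3 or more, those most like Casp1 were Prpf31 (r = 0.959), Commd4 (0.948) and Gtf3c3 (0.944). Those most like Txnip were Prkaa1 (0.888), Sdf2 (0.884) and 2210016F16Rik (0.855). These values are descriptions over 10 libraries that share depth and makeup. None of these 6 genes passed the test between the groups.

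Of 94 tested pathway genes outside the 10, in 7 lists, 3 rose and 6 fell, 9.57% against 7.35% of all genes, with a median log2 fold change of 0.0171. All 7 lists were written with earlier results of these data known, so the share called in a list is no test of that list. Of 13 other sensors and receptors 1 rose, Ifi204, a DNA-binding interferon-induced gene of the family of Aim2 (331 to 512 CPM against 121 to 328 CPM; 0.90, edgeR adjusted p = 0.0262). Mefv (-2.34, edgeR adjusted p = 0.0958) and Nod1 (-1.12, edgeR adjusted p = 0.0746) did not pass, but DESeq2 called both. The flagellin and needle receptors upstream of Nlrc4 did not pass: Naip2 had a log2 fold change of 0.26, Naip5 of -0.21 and Naip6 of -0.07, and as close copies their counts are uncertain. Of 22 triggers and regulators of NLRP3, 0 passed edgeR's test. An unadjusted p under 0.05 was found for 3 (Irgm1, Ptpn22 and Ddx3x), limma-voom called 0 and DESeq2 called 1 (Ddx3x). P2rx7, the ATP-gated channel that starts potassium loss, was at 101.5 ± 17.6 against 92.5 ± 31.3 CPM (0.13, 95% interval -0.354 to 0.623, edgeR adjusted p = 0.797). The potassium channel genes Kcnk6 and Kcnk13 (log2 fold changes of -0.14 and -0.08) did not pass either.

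Of 18 caspases and cell death partners 1 fell and 0 rose (5.56%, against 7.35% of all genes). It was Serpinb9, an inhibitor of granzyme B (8.58 to 23.6 CPM against 33.5 to 59.8 CPM; -1.58, SE 0.291, edgeR adjusted p = 0.00212). Casp8, an initiator caspase that can also act on IL-1β, was at 179.1 ± 29.5 against 170.6 ± 21.9 CPM (0.07, edgeR adjusted p = 0.854), and Ninj1, which ruptures the membrane after pores form, had a log2 fold change of -0.09. Of 15 priming genes 2 fell (13.3%, against 7.35% of all genes), the NF-kB genes Nfkb1 and Nfkbia. Nfkb1 was at 97.9 ± 26.1 against 188 ± 33.6 CPM (-0.94, edgeR adjusted p = 0.0079). Nfkbia was at 173.8 ± 49.1 against 272.9 ± 31.2 CPM (-0.65, edgeR adjusted p = 0.0499). CD36-positive library 7 (255 CPM) overlapped the CD36-negative range for Nfkbia. Tlr4, the lipopolysaccharide receptor, was at 120 ± 32.7 against 69.5 ± 23.9 CPM and did not pass (0.79, 95% interval 0.263 to 1.31, edgeR adjusted p = 0.0663). DESeq2 called it higher, and limma-voom did not call it. Of 7 chaperone and assembly genes 0 passed edgeR's test (0%, against 7.35% of all genes). An unadjusted p under 0.05 was found for 2 (Hsp90aa1 and Sugt1), limma-voom called 0 and DESeq2 called 1 (Hsp90aa1).

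Il1b, whose product caspase-1 cuts, was lower in the CD36-positive libraries, where Casp1 was higher, and the other cargo genes did not pass. Il1b was at 48.5 ± 20.0 against 139.9 ± 41.5 CPM (-1.53, edgeR adjusted p = 0.00166). Il18 was at 43.2 ± 11.7 against 26.7 ± 10.2 CPM (0.69, 95% interval 0.102 to 1.28, edgeR unadjusted p = 0.0242, edgeR adjusted p = 0.155). Il1a, which needs no caspase-1 cut to act, was at 66.3 ± 17.0 against 42.3 ± 21.0 CPM (0.65, 95% interval 0.0111 to 1.29, edgeR unadjusted p = 0.0466, edgeR adjusted p = 0.225). Both intervals lie above 0, but limma-voom and DESeq2 called neither gene. Of 7 tested products and receptors 2 fell (28.6%, against 7.35% of all genes), Il1b and the decoy receptor gene Il1r2. The latter was at 0.556 against 24.3 CPM (-5.51, edgeR adjusted p = 3.65e-06). Il1r2 is also counted among the neutrophil markers above. Summed markers of dendritic cells, monocytes, and T and NK cells were lower too. The part of neutrophils or of these other cells in the falls of Il1b and Il1r2 was not tested.

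**Figure D5:**
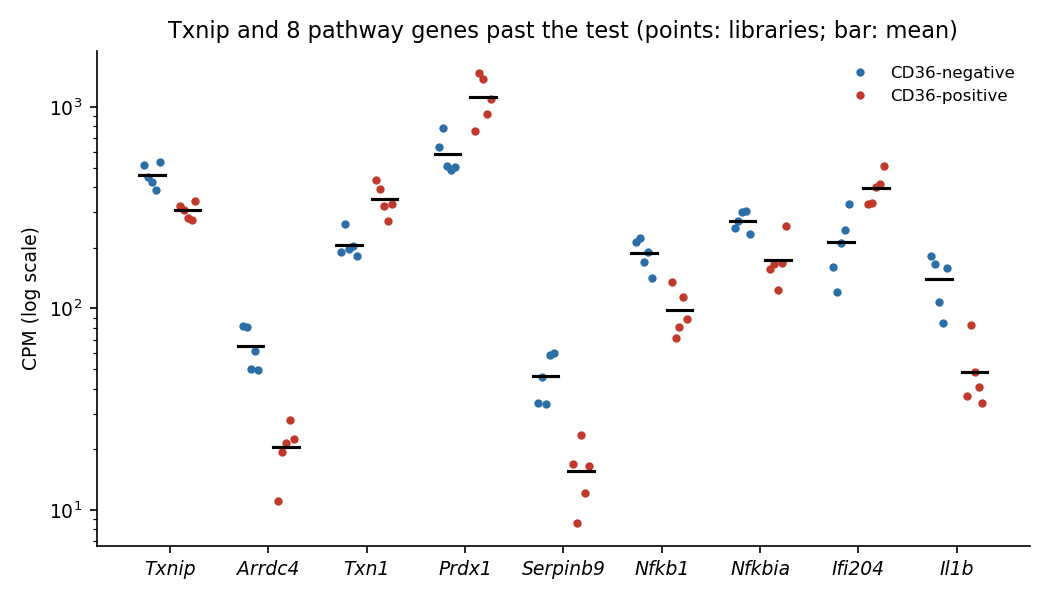
CPM (log axis) of Txnip and of the pathway genes past edgeR's test other than Il1r2, in 5 CD36-negative (blue) and 5 CD36-positive (red) libraries; points are libraries and bars group means. Arrdc4 (11 to 27.9 against 49.7 to 81.5 CPM) is lower in CD36-positive libraries, as Txnip is, and Txn1 (273 to 436 against 182 to 262 CPM) is higher.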

How the data were processed

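Expected counts per gene symbol (estimated counts, 91.9% of them whole numbers) are used as deposited, not normalized, with 1 column per library. StringTie 1.3.1, HISAT2 2.1.0, Bowtie2 2.2.8, fastp 0.18.0 and mm10 are named, with no role, per the submitters' processing notes; the counting program and strand setting are not given in the sources used here. Of 22008 lines 8 damaged and 131 repeated ones were dropped (the nearest lies 217 lines from a member), and 27 date-like symbols stayed unnamed.

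Counts were rounded and filtered with filterByExpr (minimum count 10). After TMM scaling, the quasi-likelihood test of edgeR 4.0.16 (R 4.3.3) was run with no term but group, adjusted over 11597 genes. CPM use TMM-scaled totals. Lengths and coordinates are from GENCODE M21 (GRCm38). The test was also run on counts simulated from its own fitted model, which cannot show that the model holds for these libraries. Replicate pairs differed by more than sampling noise (chi-square per degree of freedom at least 23.7).

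The members and lists were chosen with earlier results of these data known. Named were all members, the pathway genes past the threshold, Il1a, Il1b, Il18 and the 3 genes most like each called member; other genes named were chosen after their values were seen. Alternatives used limma 3.58.1 (voom) and DESeq2 1.42.0.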

Additional observations from a re-analysis of the deposited data

How the results depend on the processing

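Over 22 alternatives the log2 fold change of Casp1 stayed between 0.55 and 0.69 (adjusted p 0.00504 to 0.122) and that of Txnip between -0.65 and -0.46 (adjusted p 0.00279 to 0.163), and each lost its call in 9. Of the 10 members, 0 were called higher with no filter on low counts, with either replicate block and at an adjusted p of 0.01. 0 were called lower with no filter, with the replicate block of description numbers, at an adjusted p of 0.01 and with the GC and length correction. With each library left out both counts ran from 0 to 1. Pathway genes called higher, 3 with all libraries, were 5 with no filter, 1 at an adjusted p of 0.01, 5 with detected genes or with Y-linked level as a covariate and 6 with DESeq2's Wald test. With each library left out they ran from 1 (without CD36-negative library 4) to 5 (without CD36-positive library 4), and those called lower, 6 in the main test, from 5 to 7.

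The sign turned for 3 genes that did not pass. Gsdmd was at 0.000968 with the replicate block of description numbers, 0.108 without CD36-positive libraries 1 and 3 and 0.136 with the GC and length correction. Nek7 was at 0.0161 with the replicate block of title numbers, 0.0398 with the Y-linked covariate, and 0.154, 0.0377, 0.0611 and 0.00687 (of a range from -0.138 to 0.154 with each library left out) without CD36-negative library 7 or 8 or CD36-positive library 1 or 4. Casp4 was at -0.0638 with detected genes as a covariate and -0.0595 with the GC and length correction. The cause was not tested.

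Libraries share replicate numbers in both labels, but same-numbered libraries deviated together weakly (r 0.0291 to 0.132 by description, -0.0217 to 0.132 by title), and 1 of 4 and 2 of 5 matched their own number best. With the replicate block of description numbers Casp1 was at 0.617 (adjusted p = 0.122) and Txnip at -0.50 (adjusted p = 0.163), and 650 genes were called in place of 852. In that block CD36-positive library 3 and CD36-negative library 8 have no partner in the other group. They therefore added nothing to the group difference, and that fit rests on fewer libraries. By title numbers Casp1 was at 0.643 (adjusted p = 0.0537), Txnip at -0.583 (adjusted p = 0.0337) and 856 genes were called, all by edgeR's test. The lowest counts among the members were those of Nlrp3 (41 to 157 per library) and Nlrc4 (32 to 232).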
